A study of Mus musculus with 23 samples.

Results

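Growth and repair factors are secreted or cell surface proteins through which macrophages act on injured tissue, and 10 genes of this kind were chosen by symbol for description: Igf1, Spp1, Pdgfa, Pdgfb, Pdgfc, Hbegf, Osm, Gdf15, Gpnmb and Vegfb. All 10 were found among the 33280 genes of the counts table. They were followed across 5 groups of RNA sequencing libraries, 23 in all, made from brain macrophages sorted 1 day after an ischemic stroke. Microglia (MG) are the macrophages of the brain parenchyma, and subdural CNS-associated macrophages (sdCAMs) are CD206-bearing macrophages that lie in the leptomeninges and around vessels.

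All mice were Ccr2CreERT2/+ R26tdT/tdT animals, in which tamoxifen marks cells that express the monocyte receptor gene Ccr2 with the red protein tdTomato (tdT). They received BLZ945, a CSF1R inhibitor used to empty the brain of its macrophages, by gavage for 7 days at 200 mg/kg, or vehicle (CTL). Tamoxifen at 2 mg per day followed in all groups, and stroke was induced with thrombin in the middle cerebral artery 8 weeks after the last gavage. The groups were MG CTL, MG BLZ945, tdT- CTL and tdT- BLZ945 (n = 5 libraries each, titled F1, F2, F3, M1 and M2) and tdT+ BLZ945 (n = 3 libraries, F2, F3 and M2). The Ccr2 gene drives the Cre, so that tdT marks cells with Ccr2 expression around the time of tamoxifen, and cells that descend from them. Each CTL library held cells of 1 animal, and the study's methods give 2 pooled mice for each BLZ945 library. The names of the BLZ945 libraries titled F2 hold only 1 animal number, so that whether these were pools was not clear. The same animal number stood in the library names of BLZ945 F2 and BLZ945 M1, and whether the same animal gave cells to both was not given. Within a treatment, libraries with the same title number came from the same animal or pool. Animals without stroke were not analysed here, so that the values describe populations and treatments after stroke and not the change with stroke.

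Total counts per library ranged from 9433960 to 13276081. MG and sdCAM libraries were told apart by markers as labelled. The summed level of 5 microglia markers lay between 14400 and 22300 CPM (counts scaled by library size on the usual CPM scale) in MG and between 1090 and 2250 CPM in sdCAMs, and that of 7 sdCAM markers lay between 12.7 and 52.2 CPM in MG and between 13100 and 18900 CPM in sdCAMs. The tdT- BLZ945 library F1 stood apart, with 233 CPM over 6 monocyte markers against at most 99.6 CPM in the other libraries of its group. Over 5 neutrophil markers it held 74.2 CPM against at most 3.06 CPM, and Retnlg alone accounted for 74.2 CPM. Other libraries stood apart for single lists. Over 4 astrocyte markers, M2 held 176.8 CPM in tdT- BLZ945 and 249.4 CPM in tdT- CTL, against at most 54.7 and 141 CPM in the other libraries of these groups, and over 4 oligodendrocyte markers tdT+ F3 held 275.2 CPM against at most 87.9 CPM. M2 was the highest tdT- BLZ945 library for 7 of the 10 members. The tdT labels were checked by Gt(ROSA)26Sor, the locus that carries the reporter, which was 29.6 to 42.2 CPM in the tdT+ libraries and 3.78 to 9.78 CPM in the tdT- libraries, with a log2 fold change of 2.50 between tdT+ and tdT- BLZ945 (SE 0.44, adjusted p = 0.0269). Cd163, a scavenger receptor gene of perivascular macrophages, was 322 to 375 CPM in tdT+ and 814 to 2010 CPM in tdT- BLZ945. Ccr2, the gene behind the reporter, was 35.9 ± 49.0 CPM in tdT- BLZ945 (SD, n = 5) and 21.2 ± 18.9 CPM in tdT+ BLZ945 (SD, n = 3), with overlap. sdCAM libraries also held more fibroblast marker RNA (15.3 to 57.2 CPM over 5 genes) than MG (at most 2.39 CPM) and more neuron marker RNA (38.5 to 110 CPM over 4 genes, against at most 12.4 CPM). The part of these cells in the results below was not tested. In bulk samples, fewer cells of a type and less RNA per cell cannot be told apart.

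Insulin-like growth factor 1, encoded by Igf1, is a secreted ligand of the receptor IGF1R and promotes growth and survival of neurons and other cells. The PDGF genes encode ligands of the receptor tyrosine kinases PDGFRA and PDGFRB, which are found on mural cells, fibroblasts and oligodendrocyte progenitors, and VEGFB is a ligand of VEGFR1. HB-EGF is shed from the membrane and binds the EGF receptor, oncostatin M (Osm) is a cytokine of the IL-6 family, and GDF15 is a stress-induced cytokine. Osteopontin (Spp1) is a secreted matrix protein that binds integrins and CD44, and GPNMB is a transmembrane glycoprotein of lysosome-rich phagocytes.

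The members were tested in 8 contrasts, with the spread of libraries estimated across all genes (edgeR quasi-likelihood test, Benjamini-Hochberg adjustment over all genes tested, called at an adjusted p-value under 0.05). The contrasts share libraries, so they are not independent of each other. The population difference separated the members most. Between tdT- and MG in CTL mice, 4 of 10 members were called, 3 higher and 1 lower in tdT- sdCAMs, where 25.6% of all 12697 genes tested were called (15.3% higher and 10.3% lower). In BLZ945 mice the count was again 4 of 10, 3 higher and 1 lower, against 32.4% of all genes (18.3% higher and 14.1% lower). Between tdT+ BLZ945 and MG BLZ945, 6 of 10 were called, 3 higher and 3 lower, against 25.2% of 13790 genes (14.6% higher and 10.6% lower). These counts include Pdgfc in each contrast, and Gpnmb for tdT+, with counts at or near 0 in the lower group. For tdT+ they also include Spp1 and Vegfb, whose calls depended on single libraries, as described below. The median log2 fold change of the 10 members was 0.66, -0.50 and -0.57 in these 3 contrasts, beside -0.01, -0.02 and -0.01 over all genes tested.

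Treatment and reporter contrasts gave few calls. For BLZ945 against CTL in MG, 0 of 9 members tested were called, and Pdgfc did not pass the filter on low counts. The background was 0.408% of 11264 genes. For BLZ945 against CTL in tdT- sdCAMs 0 of 10 were called, against a background of 0% (0 of 13076 genes, with 697 at an unadjusted p under 0.05). For tdT+ against tdT- BLZ945 0 of 10 were called, with a background of 0.206%. Between tdT+ BLZ945 and tdT- CTL 1 of 10 was called, lower in tdT+, with a background of 0.283% (0.0688% higher and 0.214% lower). The difference between the BLZ945 effects in tdT- sdCAMs and MG was called for 0 of 10 members and for 0.0394% of all genes. In the 4 contrasts with 0 calls by edgeR, 1, 2, 2 and 2 members had an unadjusted p under 0.05, in the order given, and DESeq2 also called 0 members in each. A p above the threshold does not show that a member did not differ.

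**Figure D1:**
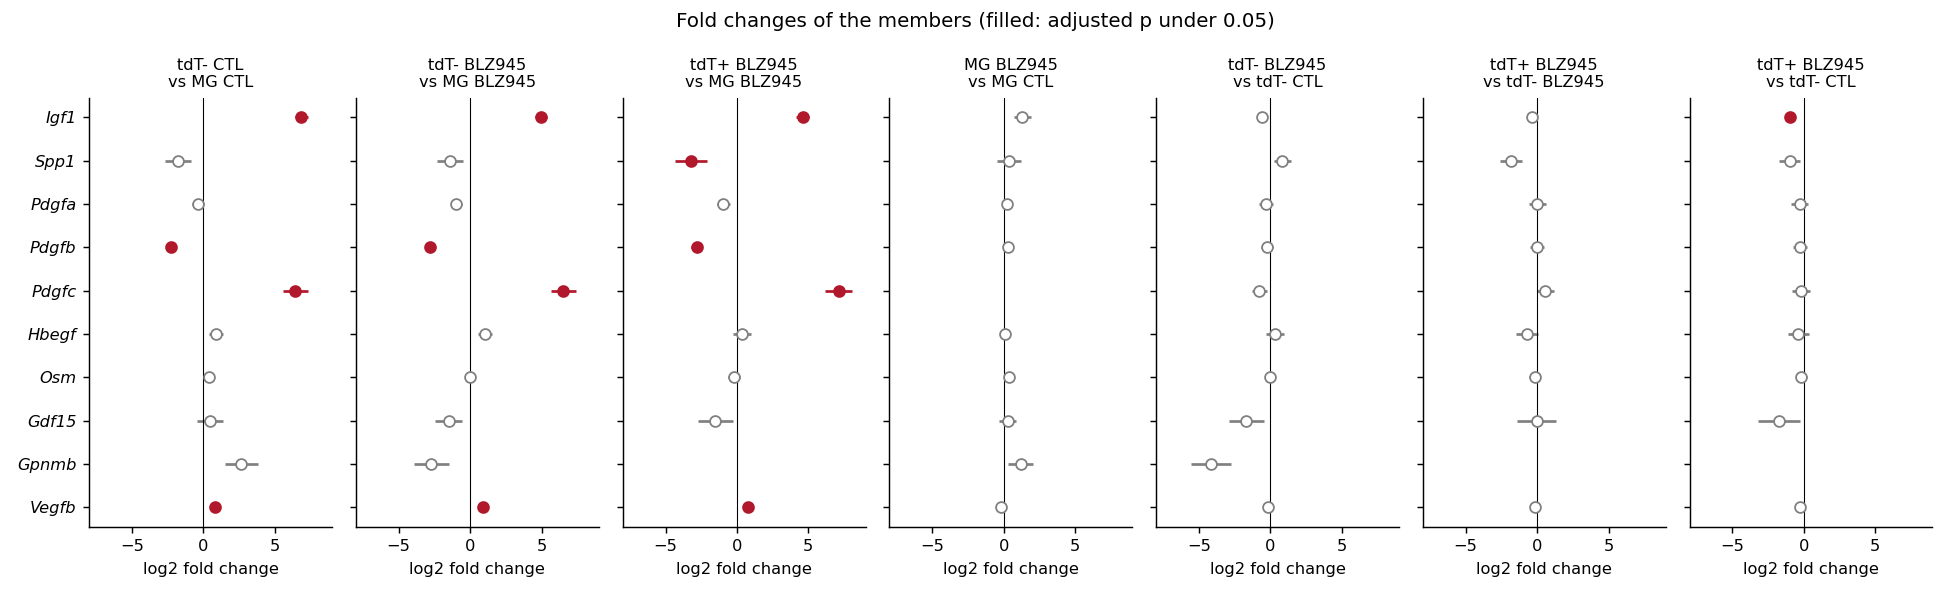
Log2 fold changes of the 10 members (rows) in 7 contrasts, with bars of 1 standard error. Filled points passed an adjusted p of 0.05 and open points did not. Igf1, Pdgfc and Pdgfb stood far from 0 in the 3 contrasts of sdCAMs with MG. Gpnmb is left out of the contrasts with tdT+, in which its counts were 0, and Pdgfc from the MG contrast.

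Igf1 was the member with the largest fold difference between tdT- sdCAMs and MG of CTL mice. Its level was 1.10, 0.613, 3.16, 0.683 and 7.43 CPM in MG CTL libraries F1, F2, F3, M1 and M2. It was 257.9, 280.1, 365.6, 306.8 and 328.9 CPM in the tdT- CTL libraries, in the same order. The groups did not overlap, and the mean was 308 ± 41.9 CPM in tdT- CTL and 2.60 ± 2.89 CPM in MG CTL (SD, n = 5 each). This was a log2 fold change of 6.86 (SE 0.47, adjusted p = 2.55e-10), or 116-fold. The size of the fold depended on MG CTL M2, and without this library the log2 fold change was 7.78 (range without single libraries 6.61 to 7.78).

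In BLZ945 mice, Igf1 was 7.73, 6.79, 7.85, 4.43 and 6.09 CPM in MG and 176.6, 172.7, 175.2, 239.8 and 243.8 CPM in tdT- sdCAMs (F1, F2, F3, M1 and M2). The log2 fold change was 4.95 (SE 0.43, adjusted p = 8.8e-09), or 30.9-fold, with no overlap. In tdT+ sdCAMs Igf1 was 170.4, 170.3 and 133.8 CPM in F2, F3 and M2, and the log2 fold change over MG BLZ945 was 4.59 (SE 0.43, adjusted p = 1.53e-08). Igf1 therefore separated every sdCAM library from every MG library, whatever the treatment or reporter. The 3 calls were retained in every fit that left out 1 library and in the fits with the animal or pool as a block.

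Within sdCAMs the order of mean Igf1 levels was 308 ± 41.9 CPM (SD, n = 5) for tdT- CTL, 202 ± 36.7 CPM (SD, n = 5) for tdT- BLZ945 and 158 ± 21.1 CPM (SD, n = 3) for tdT+ BLZ945. All libraries of each group lay below all those of the group before it. The lower step was narrow, from 172.7 CPM in tdT- BLZ945 F2 to 170.4 CPM in tdT+ BLZ945 F2. The share of all genes with such an order was not determined. tdT+ BLZ945 was lower than tdT- CTL by a log2 fold change of -0.97 (SE 0.19, adjusted p = 0.0334). This call was retained in 1 of 8 fits that left out a library (adjusted p between 0.0418 and 0.148), and it was lost with all 23 libraries in 1 model (log2 fold change -0.96, adjusted p = 0.314). The neighbours in the order were not told apart by the test. Values were -0.60 (SE 0.16, adjusted p = 0.476) between tdT- BLZ945 and tdT- CTL and -0.37 (SE 0.18, adjusted p = 0.737) between tdT+ and tdT- of BLZ945 mice. These contrasts share their groups, so that the order is not 3 separate results.

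**Figure D2:**
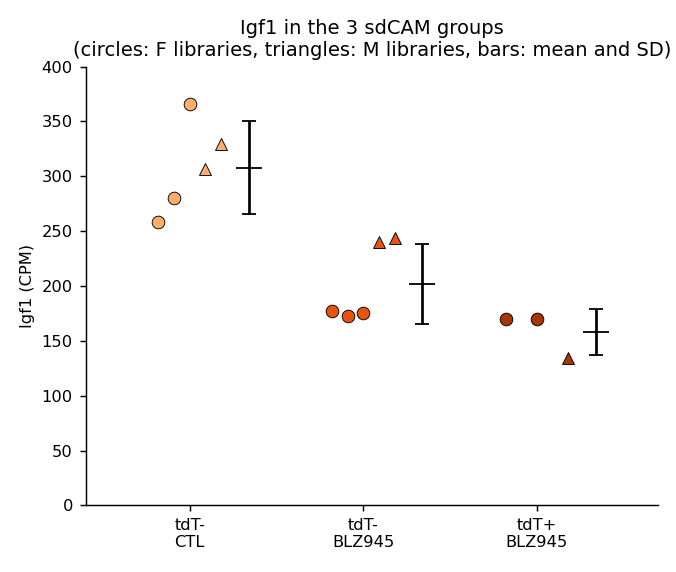
Igf1 level (CPM, y axis) in the sdCAM libraries, with 1 point per library (circles titled F, triangles titled M) and the group mean ± SD beside them. The tdT- CTL libraries lie between 257.9 and 365.6 CPM, above all tdT- BLZ945 libraries (172.7 to 243.8 CPM), which lie above the tdT+ libraries (133.8 to 170.4 CPM).

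In MG, Igf1 was 6.58 ± 1.40 CPM in BLZ945 and 2.60 ± 2.89 CPM in CTL mice (SD, n = 5 each), a log2 fold change of 1.31 (SE 0.57, adjusted p = 0.343). The groups overlapped only through the CTL library M2, at 7.43 CPM. Without this library the log2 fold change was 2.22 (adjusted p = 0.0449). The BLZ945 effect on Igf1 in tdT- sdCAMs minus that in MG was -1.91 on the log2 scale (SE 0.55, adjusted p = 0.265), and -2.83 (adjusted p = 0.012) without MG CTL M2. The same library therefore decided both calls.

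Of 13 genes of the IGF pathway, 9 were tested between tdT- sdCAMs and MG. In CTL mice 2 were higher and 1 lower, and in BLZ945 mice 4 were higher and 0 lower, with list medians of 0.87 and 0.64 (log2) beside -0.01 and -0.02 over all genes. Igfbp4, a secreted binding protein that limits access of IGF1 to its receptor, reached 663 ± 24.9 CPM in tdT- CTL and 15.5 ± 6.11 CPM in MG CTL (SD, n = 5 each), a log2 fold change of 5.42 (SE 0.28, adjusted p = 2.15e-12) and of 4.98 (SE 0.27, adjusted p = 5.75e-12) in BLZ945 mice. Igfbp2, the gene of another IGF-binding protein, was 9.54 ± 3.35 CPM in tdT- CTL and 0.259 ± 0.359 CPM in MG CTL (SD, n = 5 each, adjusted p = 0.00246). In BLZ945 mice it was 16.4 ± 9.49 and 2.07 ± 3.91 CPM (SD, n = 5 each, adjusted p = 0.0315), a call that was retained in 5 of 10 fits that left out a library. Igfbp2 did not pass the filter on low counts within MG, so that its calls are no support of their own. Igf2r, the gene of the receptor that clears IGF2, was lower in CTL mice, at 0.461 ± 0.495 CPM against 4.76 ± 3.85 CPM in MG (SD, n = 5 each, adjusted p = 0.0279), and this call was retained in 6 of 10 such fits. Igf1r itself was 13.4 ± 4.61 CPM in MG CTL and 17.2 ± 10.5 CPM in tdT- CTL (SD, n = 5 each).

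The 3 PDGF genes showed 3 different patterns over the same libraries. Pdgfc, which encodes a PDGF chain that needs proteolytic cleavage to become active, was almost restricted to sdCAMs. MG CTL held 0, 1.23, 0.513, 0.598 and 0 CPM (F1, F2, F3, M1 and M2) and MG BLZ945 0.401, 0.671, 0, 0 and 0.169 CPM. The levels in tdT- CTL were 31.6, 32.3, 30.8, 61.5 and 48.5 CPM, those in tdT- BLZ945 33.7, 6.17, 12.0, 47.1 and 19.2 CPM, and those in tdT+ BLZ945 69.7, 8.11 and 31.0 CPM (F2, F3 and M2). The lowest sdCAM library lay above the highest MG library. Over MG, the log2 fold change was 6.44 (SE 0.85, adjusted p = 4.48e-06) in CTL mice, 6.53 (SE 0.88, adjusted p = 5.93e-06) for tdT- in BLZ945 mice and 7.13 (SE 0.95, adjusted p = 4e-06) for tdT+. Pdgfc passed the filter on low counts in these contrasts through the sdCAM libraries alone, since MG libraries held 0 to 14 counts, so that the sizes are uncertain and the calls are no support of their own. The 3 calls held without any single library, but the sizes moved, to 7.16, 7.33 and 7.94 without the MG library F2 of the treatment compared and, for tdT+, to 6.24 without tdT+ F2. Between tdT- BLZ945 and tdT- CTL it was -0.78 (SE 0.54, adjusted p = 0.998), with 3 of 5 BLZ945 libraries below all CTL libraries.

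Pdgfb, whose product forms the PDGF-BB dimer that recruits pericytes, had the opposite distribution. It was 79.4, 65.6, 122, 73.5 and 116 CPM in MG CTL and 106, 117, 93.5, 132 and 110 CPM in MG BLZ945. It was 15.7, 11.4, 26.9, 16.4 and 23.5 CPM in tdT- CTL, 9.11, 8.22, 19.0, 18.5 and 23.5 CPM in tdT- BLZ945 and 20.3, 7.22 and 19.6 CPM in tdT+ BLZ945. Every MG library exceeded every sdCAM library. Relative to MG, tdT- sdCAMs were lower by a log2 fold change of -2.27 (SE 0.28, adjusted p = 2.02e-06) in CTL mice, or 4.83-fold, and of -2.82 (SE 0.29, adjusted p = 1.14e-07) in BLZ945 mice, or 7.08-fold. For tdT+ it was -2.83 (SE 0.39, adjusted p = 6.38e-06). These calls were retained in every fit that left out a library and with the animal block. Within MG, the log2 fold change of BLZ945 against CTL was 0.28 (SE 0.17, adjusted p = 0.502).

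Pdgfa differed less. Its levels were 25.2 ± 6.40 CPM in MG CTL, 30.4 ± 2.63 CPM in MG BLZ945, 19.3 ± 6.38 CPM in tdT- CTL and 15.4 ± 12.6 CPM in tdT- BLZ945 (SD, n = 5 each), whereas tdT+ held 15.7 ± 7.10 CPM (SD, n = 3). In BLZ945 mice, 4 tdT- libraries held 3.50 to 16.3 CPM and M2 held 36.4 CPM, where MG held 26.5 to 33.2 CPM. Set against MG, tdT- had a log2 fold change of -0.97 (SE 0.40, adjusted p = 0.0698). It was called with the animal or pool as a block (-1.34, adjusted p = 0.0326) and without tdT- BLZ945 M2 (-1.57, adjusted p = 0.00129).

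Vegfb, a VEGF family member linked to cell survival and lipid uptake, was moderately higher in sdCAMs. In CTL mice it was 31.3, 29.6, 31.3, 35.0 and 30.8 CPM in MG and 64.5, 56.8, 60.6, 46.9 and 52.0 CPM in tdT- sdCAMs, with no overlap. The difference was 0.84 on the log2 scale (SE 0.17, adjusted p = 0.000604), or 1.79-fold, and in BLZ945 mice it was 0.87 (SE 0.17, adjusted p = 0.00041), or 1.82-fold. In tdT+ sdCAMs Vegfb was 41.3, 29.6 and 69.4 CPM, a range that overlapped MG BLZ945 (24.0 to 29.9 CPM). The log2 fold change of tdT+ over MG was 0.74 (SE 0.23, adjusted p = 0.0185), and this call was lost with the animal block (0.55, adjusted p = 0.151) and without tdT+ M2 (0.34, adjusted p = 0.296).

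**Figure D3:**
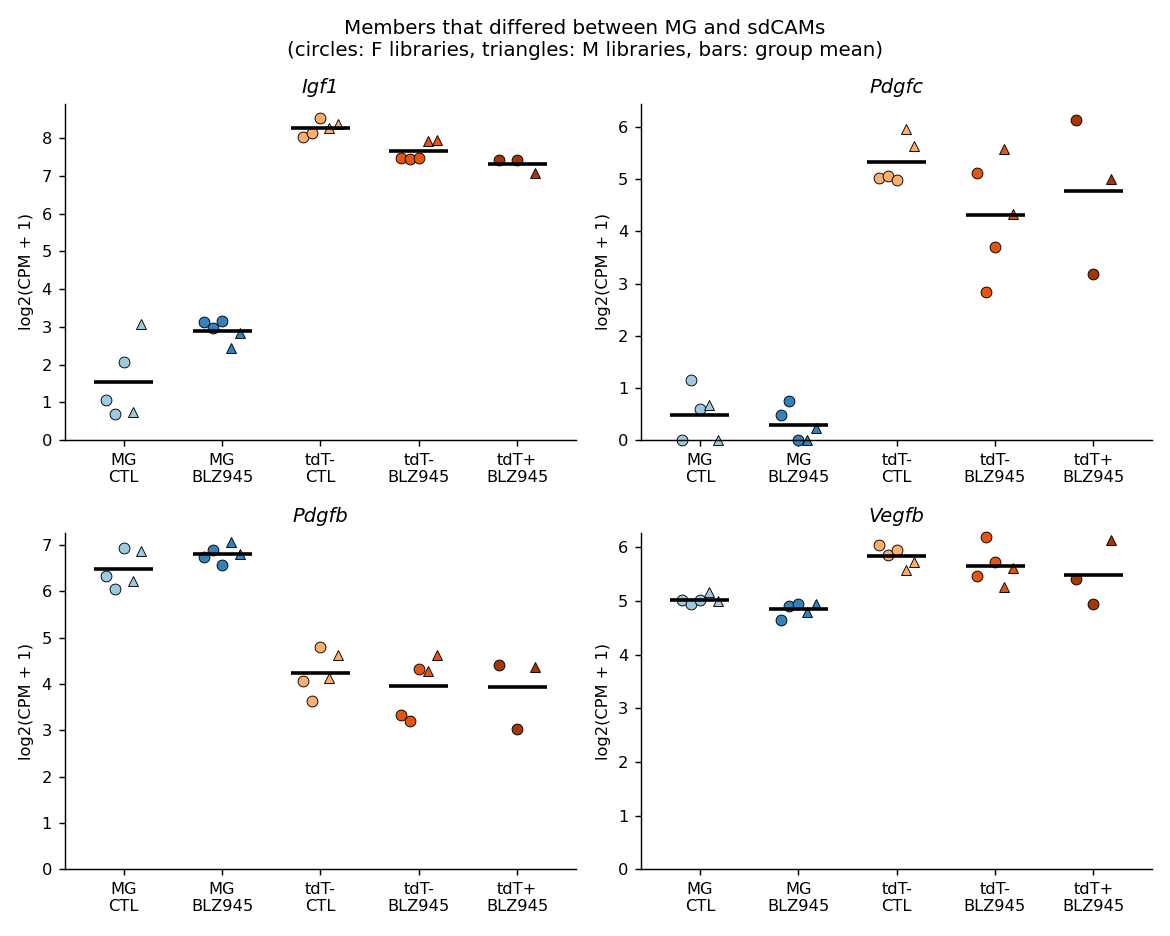
Levels of Igf1, Pdgfc, Pdgfb and Vegfb on the log2(CPM + 1) scale (y axis) in the 5 groups, with 1 point per library (circles titled F, triangles titled M) and bars at the mean of the log2 values. Igf1, Pdgfc and Pdgfb separate all sdCAM from all MG libraries, the last in the opposite direction, and Vegfb overlaps between tdT+ and MG.

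Of 12 genes for partners of PDGF and VEGF ligands, 6 were tested between tdT- sdCAMs and MG, and in CTL mice 2 were higher and 0 lower (list median 0.40 log2, beside -0.01 over all genes). In BLZ945 mice 1 was higher and 1 lower (1.04, beside -0.02). Nrp1, a co-receptor for VEGF and semaphorins, was 552 ± 97.4 CPM in tdT- CTL and 58.7 ± 13.0 CPM in MG CTL (SD, n = 5 each), and its log2 fold change was 3.24 (SE 0.19, adjusted p = 2.41e-11) in CTL and 2.88 (SE 0.19, adjusted p = 1.47e-10) in BLZ945 mice. Kdr, the gene of VEGFR2, was 6.23 to 11.5 CPM in MG BLZ945 and at 0 in 4 of 5 tdT- BLZ945 libraries, with 2.36 CPM in F1 (adjusted p = 0.00905). The PDGF receptor genes Pdgfra and Pdgfrb were at most 1.78 CPM on average in each group.

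The promoters of Igf1 and Pdgfc are shown because every sdCAM library lay above every MG library for these members. The sequences cover the 250 bases before the transcript start in the RefSeq table (build GRCm38.p6, plus strand for both genes), where 7 of the 10 members had an entry. Capitals mark matches, on either strand, to the letters TGANTCA (an AP-1-like pattern in which N is any base), GAGGAAG (a core of sites for the myeloid factor PU.1) or CACGTG (an E-box). The Igf1 window is chr10:87860861-87861110 and the Pdgfc window is chr3:81036166-81036415.
Igf1: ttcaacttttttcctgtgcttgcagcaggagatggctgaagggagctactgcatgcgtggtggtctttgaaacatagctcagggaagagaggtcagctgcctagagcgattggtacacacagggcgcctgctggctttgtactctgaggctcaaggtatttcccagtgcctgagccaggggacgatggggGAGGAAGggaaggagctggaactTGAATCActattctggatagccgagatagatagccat
Pdgfc: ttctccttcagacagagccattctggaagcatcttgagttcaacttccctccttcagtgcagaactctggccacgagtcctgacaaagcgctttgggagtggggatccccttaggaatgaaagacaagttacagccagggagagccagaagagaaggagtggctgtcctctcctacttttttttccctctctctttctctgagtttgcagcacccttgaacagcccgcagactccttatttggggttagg
The Igf1 window held 1 match to the PU.1 core, 60 to 54 bases before the start, and 1 to the AP-1 letters (TGAATCA), 37 to 31 bases before the start. The Pdgfc window held 0 matches to the 3 motifs. Of all 32851 windows of this length in the table, 10.6% held the PU.1 core, 6.75% the AP-1 letters and 6.02% the E-box. A match describes the letters of the window only, and none of the libraries measured binding.

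Hbegf and Osm, members with broad activity on neighbouring cells, did not pass the test in any contrast. Hbegf was 6.53 ± 2.01 CPM in MG CTL, 7.14 ± 2.50 CPM in MG BLZ945, 12.0 ± 4.63 CPM in tdT- CTL and 14.6 ± 12.4 CPM in tdT- BLZ945 (SD, n = 5 each), whereas tdT+ held 9.06 ± 8.71 CPM (SD, n = 3). In tdT- BLZ945 it spread from 3.79 CPM in M1 to 34.8 CPM in M2. The log2 fold change over MG in BLZ945 mice was 1.04 (SE 0.49, adjusted p = 0.107), and it was called without tdT- BLZ945 M1 (1.29, adjusted p = 0.033) but was 0.43 (adjusted p = 0.476) without M2.

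Osm was close between populations, at 118 ± 63.0 CPM in MG CTL, 156 ± 61.7 CPM in MG BLZ945, 154 ± 22.3 CPM in tdT- CTL and 153 ± 61.8 CPM in tdT- BLZ945 (SD, n = 5 each), whereas tdT+ held 136 ± 79.6 CPM (SD, n = 3). The spread within a group was wide, from 61.9 to 224 CPM in MG BLZ945 and from 52.6 to 211 CPM in tdT+. In each BLZ945 group the lowest library was F2. Differences of the size seen between groups could not be told from this spread.

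Of 14 genes of the EGF family and its shedding, 7 were tested between tdT- sdCAMs and MG, and 2 were higher and 3 lower in CTL mice (list median -0.73 log2, beside -0.01 over all genes) and 2 higher and 4 lower in BLZ945 mice (-1.49, beside -0.02). Egfr, the gene of the receptor that HB-EGF binds, was higher in tdT- sdCAMs in CTL mice, at 28.7 ± 6.22 CPM against 0.245 ± 0.501 CPM in MG (SD, n = 5 each, adjusted p = 0.000178), and in BLZ945 mice, at 18.3 ± 18.9 against 0.0348 ± 0.0476 CPM (SD, n = 5 each, adjusted p = 7.99e-05), where 1 tdT- library was at 0. Erbb3, a receptor gene for neuregulins, was higher in CTL mice, at 6.65 ± 4.65 CPM in tdT- sdCAMs (SD, n = 5) and 0 in all MG libraries (adjusted p = 8.47e-06). In BLZ945 mice Erbb3 was 6.19 ± 3.43 CPM against 0.0335 ± 0.075 CPM in MG (SD, n = 5 each, adjusted p = 3.2e-05). Egfr and Erbb3 did not pass the filter on low counts within MG and were tested through the sdCAM libraries. Their calls are therefore no support of their own. Cd9, a tetraspanin that associates with membrane-bound HB-EGF, was lower in tdT- sdCAMs by a log2 fold change of -4.95 (SE 0.23, adjusted p = 7.55e-13) in CTL and -4.47 (SE 0.23, adjusted p = 2.41e-12) in BLZ945 mice. Adam10, a sheddase, was lower by -1.20 (SE 0.21, adjusted p = 0.000138) and -1.49 (SE 0.21, adjusted p = 9.83e-06) in the same contrasts. Of 10 genes of the IL-6 family and its signalling, 6 were tested and 1 was higher and 4 were lower in both treatments (list medians -1.29 and -1.35, beside -0.01 and -0.02). Lifr, a receptor subunit used by LIF, was higher by 1.47 (SE 0.15, adjusted p = 6.54e-08) in CTL mice, and the ligand genes Clcf1 and Il6 were lower by -5.48 (SE 0.82, adjusted p = 2.35e-05) and -2.97 (SE 0.64, adjusted p = 0.00134). Osmr, the specific receptor subunit of oncostatin M, averaged at most 0.383 CPM in each group.

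Gdf15 was low and uneven. It was 4.96, 2.63, 7.35, 2.56 and 38.0 CPM in MG CTL and 14.7, 9.81, 16.0, 11.5 and 16.0 CPM in MG BLZ945. Every MG BLZ945 library exceeded 4 of the 5 MG CTL libraries, and the CTL library M2 exceeded all of them. The log2 fold change was 0.27 (SE 0.58, adjusted p = 0.893), and 1.63 (adjusted p = 0.027) without MG CTL M2. In tdT- sdCAMs it was 11.3, 6.56, 16.1, 29.2 and 14.2 CPM in CTL and 1.5, 0.108, 0, 7.87 and 14.3 CPM in BLZ945 mice, with overlap. In tdT+ it was 8.04, 6.13 and 0 CPM. Of 9 genes of the GDF15 receptor and the integrated stress response, 7 were tested, with 0 higher and 2 lower in tdT- sdCAMs than MG in each treatment, Atf4 and Chac1 (list medians -0.17 and -0.71, beside -0.01 and -0.02), a share close to that over all genes. The call of Atf4 in CTL mice (adjusted p = 0.0332) was retained in 4 of 10 fits that left out a library. Chac1 was 2.42 ± 2.48 CPM in MG CTL and 0.0563 ± 0.0869 CPM in tdT- CTL (SD, n = 5 each). In BLZ945 mice it was 3.91 ± 0.995 and 0.0539 ± 0.121 CPM (SD, n = 5 each). Chac1 did not pass the filter on low counts within sdCAMs, so that its calls are no support of their own.

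Osteopontin in MG CTL had the largest coefficient of variation of any member in any group. Spp1 was 2130, 321, 1400, 579 and 17100 CPM in MG CTL and 5340, 746, 6840, 4120 and 11700 CPM in MG BLZ945. It was 868, 887, 1080, 473 and 2810 CPM in tdT- CTL, 785, 322, 1040, 3630 and 4950 CPM in tdT- BLZ945 and 326, 623 and 894 CPM in tdT+ BLZ945. The library M2 stood far above the other MG CTL libraries, and the coefficient of variation was 167% there, against 13.6% for Igf1 in tdT- CTL. Spp1 counts were 2980 or more per library, and these are reads of amplified cDNA and not molecules.

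With this spread, BLZ945 and CTL MG differed in Spp1 by a log2 fold change of 0.39 (SE 0.84, adjusted p = 0.889), and the value moved from -0.04 without MG BLZ945 M2 to 2.37 without MG CTL M2, with 0 calls among the 10 fits. tdT- sdCAMs differed from MG by -1.81 (SE 0.91, adjusted p = 0.162) in CTL mice, a value that turned to 0.15 without MG CTL M2 and was -0.62 with the animal as a block (SE 0.50, adjusted p = 0.434), and by -1.41 (SE 0.90, adjusted p = 0.247) in BLZ945 mice. With the animal or pool as a block, the latter was called (-1.61, SE 0.50, adjusted p = 0.0255). tdT+ sdCAMs were lower than MG of BLZ945 mice by -3.22 (SE 1.13, adjusted p = 0.0392), although the groups overlapped, since the lowest MG library (746 CPM) lay below the highest tdT+ library (894 CPM). That call was retained with the animal block (-2.68, adjusted p = 0.0102) and in 2 of 8 fits that left out a library. Spp1 in tdT+ against tdT- BLZ945 gave a log2 fold change of -1.83 (SE 0.76, adjusted p = 0.671), and of -1.06 (SE 0.43, adjusted p = 1) with the pool as a block. Of the 3 pools with both libraries, F2 had nearly equal levels (326 CPM in tdT+ and 322 CPM in tdT-).

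**Figure D4:**
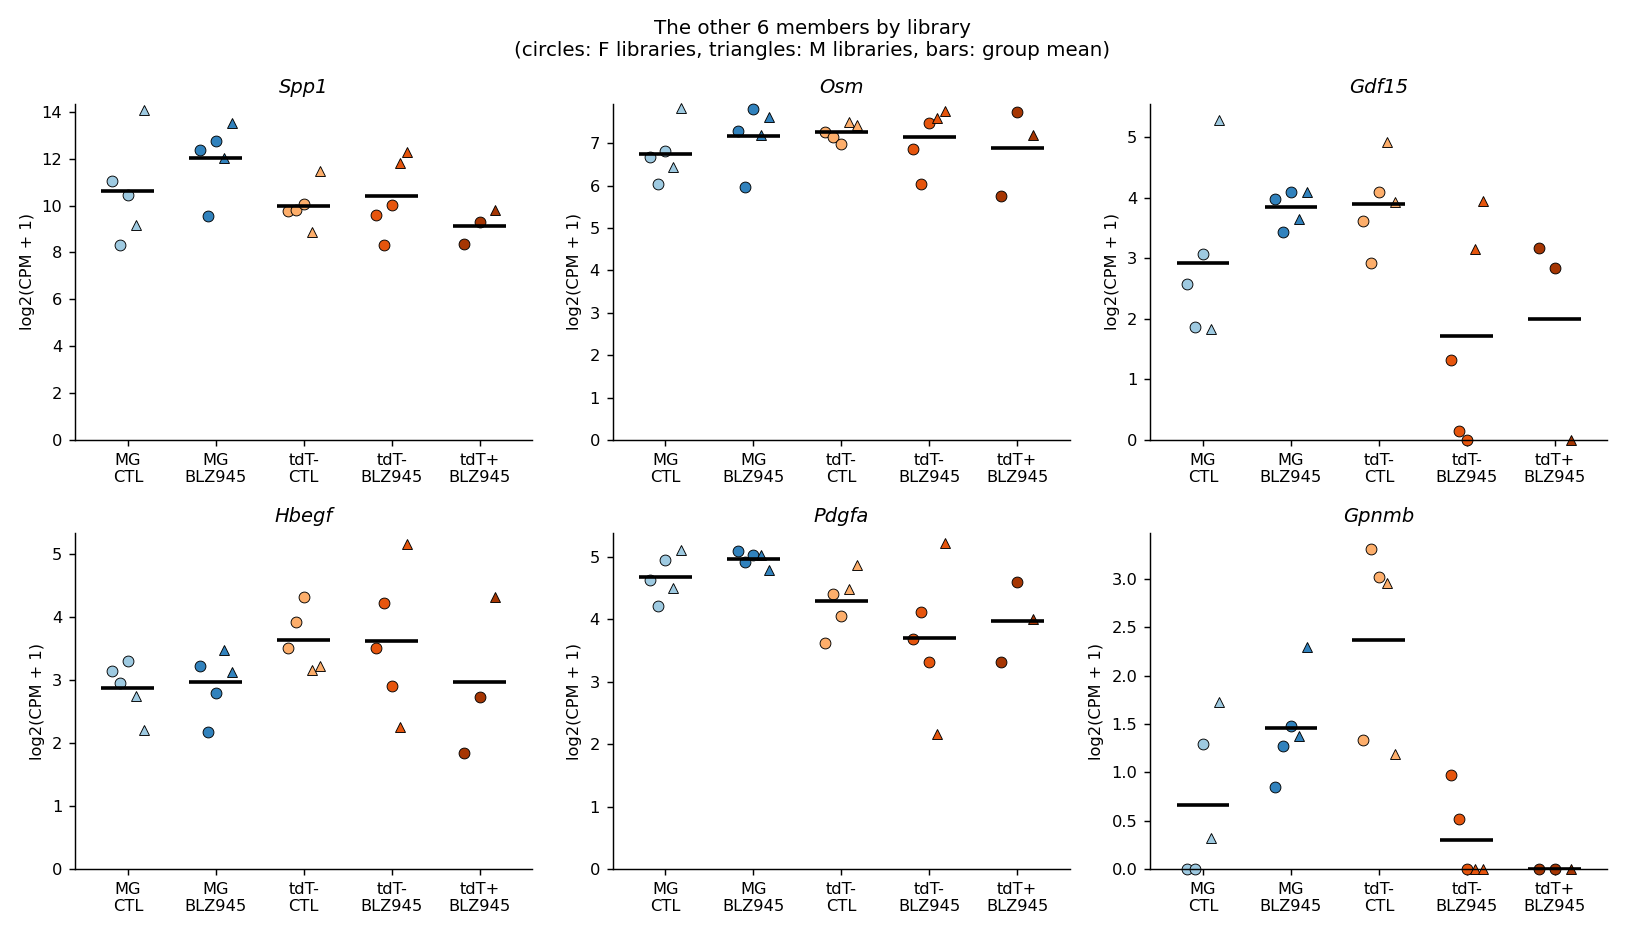
Levels of Spp1, Osm, Gdf15, Hbegf, Pdgfa and Gpnmb on the log2(CPM + 1) scale (y axis) in the 5 groups, with 1 point per library (circles titled F, triangles titled M) and bars at the mean of the log2 values. For Spp1, Osm and Gdf15 the triangle of MG CTL M2 stands above the other MG CTL libraries, and Gpnmb is at 0 in all 3 tdT+ libraries.

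Because MG and tdT- libraries of the same title number came from the same animal or pool, the members could be compared within animals. This comparison was chosen after the values were seen. Levels on the log2(CPM + 1) scale were set against the mean of their treatment, over 10 animals or pools. For Spp1, Pearson's r was 0.717 (exact permutation test within treatments, two-sided, p = 0.0113, adjusted p = 0.113 over 10 members) and Spearman's rho was 0.600 (exact permutation p = 0.0861, adjusted p = 0.679). The animal CTL M2 had the highest Spp1 level of its treatment in both populations, and so did the pool BLZ945 M2. Without the animals farthest from the median, CTL M2 and BLZ945 F2, r was 0.476, so that the relation rested in part on them, and it did not pass the adjustment. The median r over 12663 genes was 0.149, and 4.37% of these genes had a higher r than Spp1. For Osm, r was 0.679 (exact permutation p = 0.045, adjusted p = 0.225), rho was 0.442 (exact permutation p = 0.228, adjusted p = 0.679) and r without CTL M2 and BLZ945 F2 was 0.430. The other 8 members gave r between -0.391 for Gpnmb and 0.492 for Pdgfb, with adjusted p of at least 0.415 by the same exact test.

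**Figure D5:**
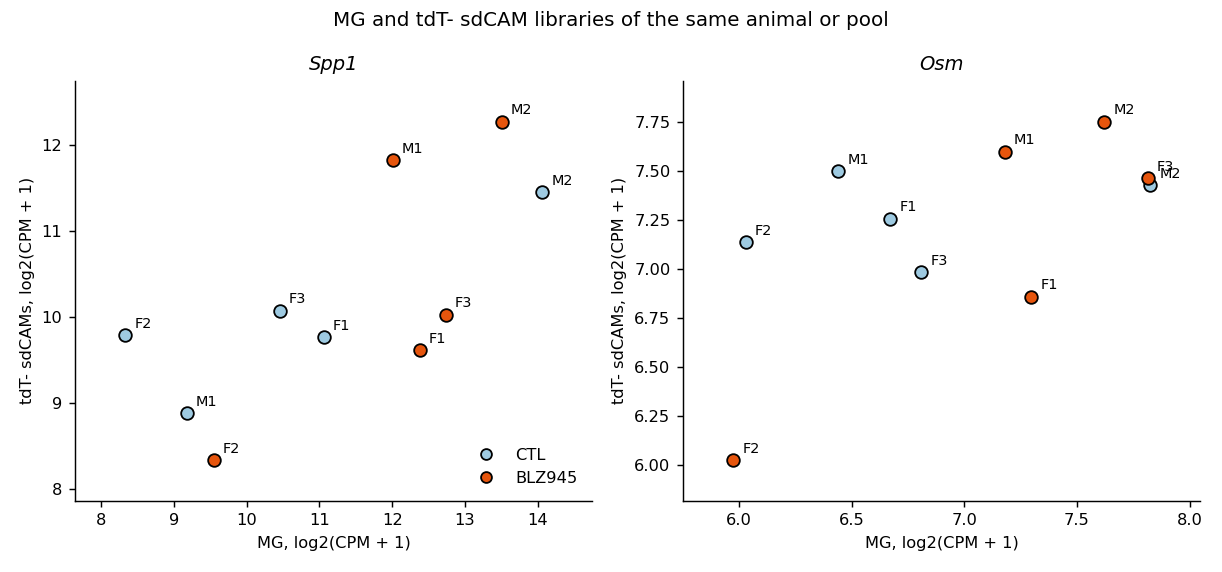
Spp1 (left) and Osm (right) in tdT- sdCAMs (y axis) against MG (x axis) of the same animal or pool, both as log2(CPM + 1), with 1 point per animal or pool and colours for the treatment. CTL M2 and BLZ945 M2 lie at the upper right for Spp1, and BLZ945 F2 at the lower left for Osm.

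Gpnmb was at or near 0 in sdCAMs of BLZ945 mice and was detected in every tdT- CTL library. Its level was 1.52, 8.88, 7.11, 6.75 and 1.29 CPM in tdT- CTL, 0.965, 0.433, 0, 0 and 0 CPM in tdT- BLZ945 and 0 CPM in all 3 tdT+ libraries. A count of 0 allows a level of up to 0.287 to 0.301 CPM (3 counts) in the tdT+ libraries, counting error only. Every tdT- CTL library therefore lay above every sdCAM library of BLZ945 mice. The mean of tdT- CTL, 5.11 ± 3.48 CPM (SD, n = 5), lay at least 17.3-fold above this limit, averaged over the tdT+ libraries at 0.295 CPM. Its lowest libraries, at 1.29 and 1.52 CPM, lay much nearer to the limit. The contrast did not pass the test (adjusted p = 0.23), and DESeq2 called it (adjusted p = 0.00376), a call against counts of 0. Between tdT- BLZ945 and tdT- CTL the log2 fold change was -4.15 (SE 1.40, adjusted p = 0.71), in a contrast without any called gene.

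In MG, Gpnmb was 0, 0, 1.45, 0.256 and 2.30 CPM in CTL and 0.803, 1.42, 1.79, 1.60 and 3.89 CPM in BLZ945 mice, a log2 fold change of 1.20 (SE 0.87, adjusted p = 0.6). The mean of MG BLZ945 was at least 6.45-fold higher than the limit in tdT+ sdCAMs, and this contrast was called (adjusted p = 0.017). Since the tdT+ libraries held 0 counts, Gpnmb was tested through the other groups, and the call is no support of its own. The call was retained in 6 of 8 fits that left out a library and lost without tdT+ F2 (adjusted p = 0.0566) or tdT+ F3 (0.0514). For tdT- over MG the log2 fold change was 2.66 (SE 1.18, adjusted p = 0.11) in CTL mice and -2.73 (SE 1.23, adjusted p = 0.097) in BLZ945 mice, and the latter was called without tdT- BLZ945 F1, the library with the most monocyte marker RNA (-4.04, adjusted p = 0.0327). The difference of the BLZ945 effects was -5.38 on the log2 scale (SE 1.71, adjusted p = 0.329). Gpnmb counts were at most 115 per library.

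Genes for receptors of osteopontin and GPNMB split between the populations. Of 8, all tested, 2 were higher and 3 lower in tdT- sdCAMs in each treatment (list medians 0.24 and -0.21 log2, beside -0.01 and -0.02). Itga4, an integrin subunit that binds osteopontin and VCAM1, was higher by 5.34 (SE 0.80, adjusted p = 2.33e-05) in CTL and 5.96 (SE 0.84, adjusted p = 9.7e-06) in BLZ945 mice. It did not pass the filter on low counts within MG, so that the sizes are uncertain and the calls are no support of their own. Itgb5, an integrin subunit paired with the alpha V chain, was lower by -2.12 (SE 0.16, adjusted p = 8.92e-10) and -2.22 (SE 0.16, adjusted p = 5.24e-10). Of 4 genes for MiT/TFE factors, lysosomal regulators known to drive Gpnmb, 2 were higher and 0 lower in CTL mice and 1 was higher and 1 lower in BLZ945 mice (list medians 0.58 and 0.26). Tfec was higher in both, by 5.05 (SE 0.68, adjusted p = 5.9e-06) and 5.96 (SE 0.72, adjusted p = 1.18e-06). Like Itga4, Tfec did not pass the filter within MG, and its calls are no support of their own.

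Further lists placed the members beside other products of the same cells. Of 10 genes of phagocyte activation that are often described with Spp1 and Gpnmb, all were tested, with 5 higher and 5 lower in tdT- sdCAMs of CTL mice and 5 higher and 4 lower in BLZ945 mice (list medians -0.21 and -0.01, beside -0.01 and -0.02). Apoe, a lipid carrier, reached 36400 ± 4330 CPM in tdT- CTL and 590 ± 425 CPM in MG CTL (SD, n = 5 each), with log2 fold changes of 5.96 (SE 0.46, adjusted p = 1.45e-09) in CTL and 6.25 (SE 0.47, adjusted p = 8.95e-10) in BLZ945 mice. Trem2, a lipid receptor, was lower by -1.53 (SE 0.14, adjusted p = 2.97e-08) and -1.33 (SE 0.14, adjusted p = 2.32e-07). Of 12 other trophic factors, 7 were tested, with 2 higher and 0 lower in CTL and 2 higher and 1 lower in BLZ945 mice (list medians 0.07 and -0.53). Ptn, the gene of pleiotrophin, was higher by 3.83 (SE 0.46, adjusted p = 1.21e-06) and 4.62 (SE 0.47, adjusted p = 1.09e-07), and Grn, the gene of progranulin, by 0.78 (SE 0.11, adjusted p = 1.19e-05) and 0.60 (SE 0.11, adjusted p = 0.000251). In the 5 contrasts of treatment, reporter and the difference of BLZ945 effects, 0 of the 56 to 70 pathway genes tested were called by edgeR, 7 to 9 of them had an unadjusted p under 0.05, and DESeq2 called 1 or 2 in each contrast.

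Within tdT- BLZ945, the 2 libraries titled M lay above the 3 titled F for 4 members, Igf1, Spp1, Osm and Gdf15, where 9.98% of all genes tested had this order. In tdT- CTL this held for 3 members, Pdgfa, Pdgfc and Osm, where 9.35% of all genes had it. Osm was the member shared by both groups. The opposite order, with both M libraries below all F libraries, held for 2 members in tdT- CTL, Hbegf and Vegfb (8.51% of all genes), and for 0 members in tdT- BLZ945 (12.7%). What F and M stand for was not given in the labels, and the split was seen in the data first.

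Genes with the most similar course over the 23 libraries were sought among 8524 genes, by the root mean square difference of log2(CPM + 1) values after centring each gene. The nearest to Igf1 were Clec4d (0.60), Vcam1 (0.75) and Adam33 (0.76), beside a standard deviation of Igf1 itself of 2.92. The nearest to Pdgfb were Usp2 (0.47), Bin2 (0.48) and Basp1 (0.50), beside 1.39. The nearest to Osm was Cdkn1a (0.26), beside 0.64, and the nearest to Spp1 was Il1rn (1.17), beside 1.68. The libraries behind these distances share depth and population, and the distances are descriptions.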

How the data were processed

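Per the labels, RNA from sorted cells was amplified (SMART-Seq, no molecular identifiers), reads were aligned with STAR 2.7.11a and assigned with featureCounts 2.0.6, as the submitters' processing notes give it. The authors deposited whole-number counts per gene symbol, not normalized. The genome build of the table was not clear, so genes were matched by symbol, and coordinates come from RefSeq alone. Reads shared by similar genes were not tracked.

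Tests used edgeR 4.0.16 in R (TMM factors, filterByExpr, quasi-likelihood test, adjustment over all genes), and with DESeq2 1.42.0 as an alternative, the study's tool. MG contrasts used 10 libraries, sdCAM contrasts 13, tdT- against MG 20, and tdT+ against MG 23. CPM used TMM factors over all libraries, with means and SD over libraries. A floor was 3 counts. Same-numbered libraries came from the same animal or pool within a treatment, and their deviations correlated by 0.117 (tdT- and MG, CTL), 0.087 (tdT- and MG, BLZ945), 0.070 (tdT+ and tdT-) and 0.131 (tdT+ and MG) on average. Between treatments a number named different animals, and a block on it paired nothing. Named list genes were called ones, at most the 4 with the lowest p per list and contrast. The receptor genes Igf1r, Pdgfra, Pdgfrb and Osmr, Egfr in BLZ945 mice, Gt(ROSA)26Sor, Cd163 and Ccr2 fell outside this rule and were named after their values were seen. Members and lists were chosen with earlier results of these data known. Exact permutations were enumerated with numpy 2.4.6. The alternatives tried stand in the closing section.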

Additional observations from a re-analysis of the deposited data

Results flagged for a closer look

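In groups of 5 libraries, a library was singled out where its gap to the nearest other library exceeded Dixon's 95% critical value as a share of the range of its group. Of 40 groups tested (10 members in 4 groups of 5), 4 were singled out, where chance gives about 1 in 20 for values without skew. The gaps were taken on CPM, and on the log2(CPM + 1) scale 0 of the 40 passed, with shares of 0.524 to 0.644 for these 4 against a critical value of 0.71. All 4 were libraries of the animal CTL M2. Spp1 in MG CTL M2 was 17100 CPM, with the next library at 2130 CPM. Spp1 in tdT- CTL M2 of the same animal was 2810 CPM, with the next at 1080 CPM. Osm in MG CTL M2 was 226 CPM, with the next at 111 CPM, and Gdf15 in MG CTL M2 was 38.0 CPM, with the next at 7.35 CPM. The cause was not tested. Without MG CTL M2, Igf1 and Gdf15 were called between BLZ945 and CTL MG, as described above.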

How the results depend on the processing

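The alternatives were DESeq2, RLE factors, no filter, at least 10 counts in every library, a replicate block, all 23 libraries in 1 model (for tdT+ against MG, the 8 libraries compared), and leaving out each library in turn. In the 3 contrasts of BLZ945 with CTL libraries of 1 population type, the block joined different animals that share only a title number, so that its values there do not come from a pairing. Between tdT+ BLZ945 and tdT- CTL, 1 member was called. With DESeq2 there were 2 members (Igf1 and Gpnmb), with the replicate block 0, with all 23 libraries 0, and without single libraries 0 to 1. With at least 10 counts in every library, tdT- against MG gave 2 members in each treatment and tdT+ against MG 3, since Igf1, Pdgfc and, in the last, Gpnmb were no longer tested. Without single libraries, MG BLZ945 against MG CTL gave 0 to 2 members and the difference of BLZ945 effects 0 to 1, and the highest counts came without MG CTL M2. The log2 fold change of Spp1 turned sign, from -0.04 to 2.37 in MG BLZ945 against MG CTL and from -2.38 to 0.15 in tdT- against MG of CTL mice. The replicate block gave 6 members for tdT- against MG in BLZ945 mice and 5 for tdT+ against MG. Apart from these calls (Spp1, Pdgfa and Vegfb) and that of Igf1 between tdT+ BLZ945 and tdT- CTL, it changed no other call of a member. Over the log2 fold changes of named genes, 423 of the values under other settings kept their direction and their side of the threshold, 3 crossed to a call and 3 lost it. Among values without a single library, 729 kept both, 6 gained a call, 31 lost it (15 of them for Igfbp2, Igf2r and Atf4) and 2 turned sign. Without 1 library, called values moved to -6.75 and -5.80 for Clcf1 (without tdT- M1), 6.28 and 6.89 for Itga4 (without MG CTL F3 and MG BLZ945 F1), 5.64 for Tfec in CTL mice (without MG CTL F3) and -3.80 for Il6 in BLZ945 mice (without tdT- BLZ945 F3). Those of Igfbp2, Igf2r, Kdr, Egfr, Erbb3 and Chac1, genes with low counts, also moved by over 1.5 times, and levels in place of fold changes are given for them. Values of Gpnmb that were not called moved most without MG CTL M2 or tdT- BLZ945 F1, to -6.69 for the difference of effects.

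Counts over all genes moved more. BLZ945 against CTL in MG called 46 genes, and 238 with DESeq2, 193 with no filter, 89 with the block on unrelated animals and 12 with all 23 libraries. In tdT- sdCAMs it called 0, and 56 with DESeq2 and 29 with all 23 libraries. tdT+ against tdT- of BLZ945 mice called 27, and 133 with DESeq2, 6 with the block and 82 with all 23 libraries. tdT+ against tdT- CTL called 37, and 181 with DESeq2, 61 with no filter and 121 with all 23 libraries. The difference of effects called 5, and 94 with DESeq2, 9 with no filter, 0 with at least 10 counts in every library, 1 with the block and 1 with all 23 libraries. Without single libraries, these counts ran from 22 to 102 for BLZ945 against CTL in MG (highest without MG CTL M2), from 16 to 27 for tdT+ against tdT- BLZ945, from 21 to 44 for tdT+ against tdT- CTL (lowest of both without tdT+ F2) and from 0 to 36 for the difference of effects, with 36 without tdT- BLZ945 F1, the library with the most monocyte marker RNA. The cause was not tested.

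Spp1 correlated within animals at r between 0.587 and 0.793 without single animals or pools, and at 0.717 with a pseudocount of 5 CPM, alternatives chosen after seeing the data. The exact p exceeded 0.05 without CTL M2 and without BLZ945 F2. Values of Gpnmb, and of Pdgfc and Igf1 in MG, rest on few or 0 counts in some libraries.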
